A study of Drosophila melanogaster with 2 samples.

Results

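Aminoacyl-tRNA synthetase genes were examined for peaks of the CG4730 protein at their starts. The members were the protein-coding genes whose symbol is 1 or 2 three-letter amino acid codes followed by RS, with or without the suffix -m, which gave 33 of the 13968 protein-coding genes on the 7 chromosome arms of the dm6 build. The suffix -m marks 15 genes for mitochondrial enzymes, and the other 18 are called cytoplasmic below. The symbol alone decided this, and some of the 18 may also supply the mitochondrial enzyme. The measurement was chromatin immunoprecipitation with sequencing (ChIP-seq), in which DNA bound by a protein is pulled down and mapped. There was 1 group, whole Drosophila melanogaster embryos aged 0 to 24 hours of the strain CG4730-GFP, which carries an insertion that makes CG4730 fused to eGFP, and an antibody against GFP was used for 2 biological replicates. No untagged or other group was analysed here, so no contrast between conditions exists, and in embryos that mix all cell types a strong peak in few cells and a weak peak in many cannot be told apart. A gene is called bound where the summit of a peak in the authors' pooled thresholded list lies within 500 bp of any of its transcript starts.

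Aminoacyl-tRNA synthetases join each amino acid to its transfer RNA, the step that fixes the meaning of the genetic code. The enzymes fall into class I and class II by the fold of the catalytic domain, and in animals several cytoplasmic enzymes sit together in a multisynthetase complex held by AIMP scaffold proteins. Mitochondria translate their own messages with a separate set of nuclear-encoded synthetases, while for a few amino acids 1 gene supplies both compartments. GluProRS is a fused enzyme that charges the transfer RNAs of glutamate and of proline.

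Bound synthetase genes had summits in stretches made mostly of A and T. The 101 bases centred on the summit are shown for 5 of the 7 bound genes, read 5′ to 3′ along the strand of the synthetase gene from the NCBI Release 6 genome, with the longest unbroken run of A or T in capitals. HisRS and TrpRS-m had no peak within 500 bp in the pooled ranked list used here or in either replicate's own ranked list. Windows of the same length at these genes are shown for contrast. They are centred 147 bp upstream of the start, the median distance between summit and start at the bound genes.
GluProRS, chr3R:23958488-23958588, minus strand: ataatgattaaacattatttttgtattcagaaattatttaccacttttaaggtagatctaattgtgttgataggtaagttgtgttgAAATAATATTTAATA
SerRS, chr2L:3037338-3037438, minus strand: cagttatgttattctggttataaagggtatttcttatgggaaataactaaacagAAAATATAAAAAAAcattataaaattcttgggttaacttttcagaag
IleRS, chr3L:22288458-22288558, plus strand: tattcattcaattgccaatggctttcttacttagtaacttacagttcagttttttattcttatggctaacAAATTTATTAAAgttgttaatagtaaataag
ThrRS, chr2L:12103549-12103649, plus strand: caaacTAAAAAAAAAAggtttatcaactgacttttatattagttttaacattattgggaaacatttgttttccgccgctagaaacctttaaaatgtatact
ProRS-m, chr3L:2651965-2652065, minus strand: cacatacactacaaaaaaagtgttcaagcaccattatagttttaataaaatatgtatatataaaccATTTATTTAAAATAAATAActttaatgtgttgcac
HisRS, chrX:18515231-18515331, plus strand: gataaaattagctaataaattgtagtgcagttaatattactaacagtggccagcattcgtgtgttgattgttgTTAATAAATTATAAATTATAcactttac
TrpRS-m, chr3L:17849530-17849630, plus strand: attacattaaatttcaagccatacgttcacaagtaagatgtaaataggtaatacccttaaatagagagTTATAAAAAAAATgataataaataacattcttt

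In these windows A and T made up 79.2% of bases at GluProRS, 75.2% at SerRS and at IleRS, 73.3% at ThrRS and 78.2% at ProRS-m. The contrast windows held 73.3% at HisRS and 77.2% at TrpRS-m, within the range of the bound genes. The longest A or T run was 20 bases at HisRS, against 11 at ThrRS and 19 at ProRS-m.

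Of the 33 synthetase genes 7 were bound (21.2%, Wilson 95% interval 10.7 to 37.8%), against 13.7% of all coding genes. The bound cytoplasmic genes were GluProRS, SerRS, IleRS, ThrRS and MetRS, 5 of 18 (27.8%, interval 12.5 to 50.9%). The bound mitochondrial genes were ProRS-m and CysRS-m, 2 of 15 (13.3%, interval 3.74 to 37.9%). The cytoplasmic share was 14.4 percentage points higher, with an interval of -14.5 to 39.5 by Newcombe's method, which includes a difference of 0. The share of 13.7% lies inside the interval of each group in this call, which for the cytoplasmic genes does not hold for each other peak list (below). The intervals cover counting error over genes only, and no test was made over the list.

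**Figure D1:**
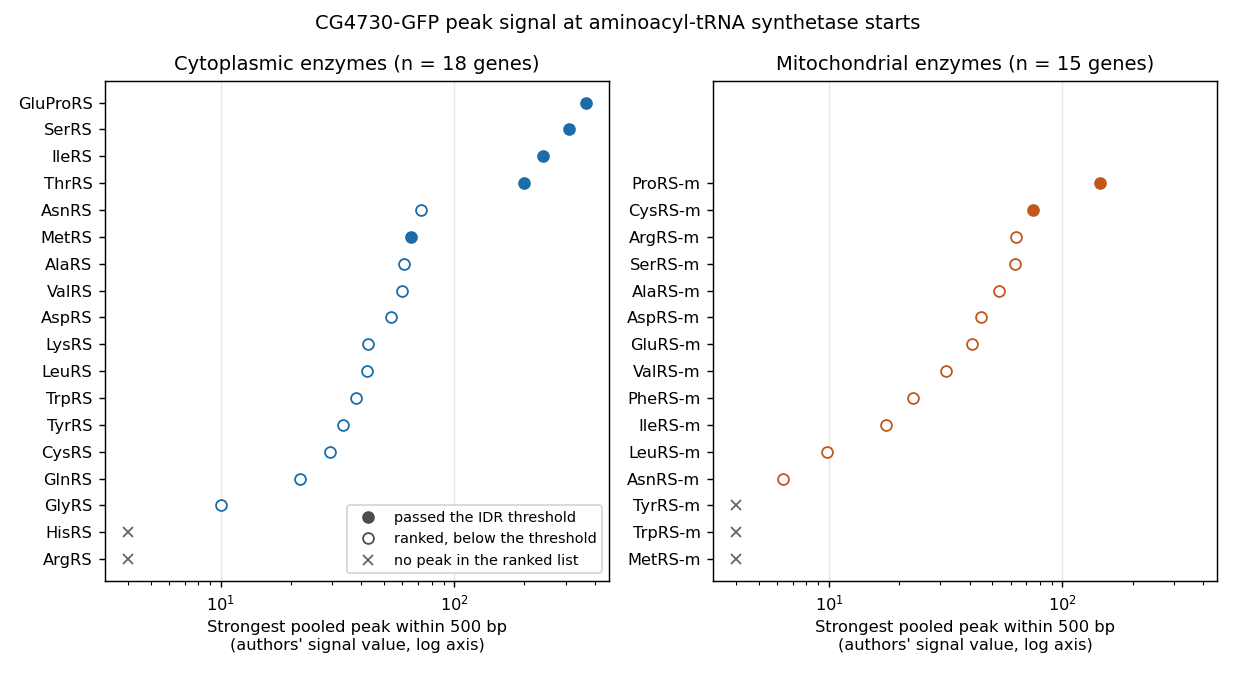
Strongest peak within 500 bp of any start of each synthetase gene in the authors' pooled ranked list, as the authors' signal value on a log axis. Filled points passed the threshold, open points did not, and crosses at the left edge mark genes with no ranked peak. GluProRS, SerRS, IleRS and ThrRS stand highest among cytoplasmic genes, and ProRS-m among mitochondrial ones.

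The signal value is the authors' own number for each peak, with no stated unit, and serves here to rank peaks. GluProRS (FBgn0005674) carried the strongest promoter peak of the members, on 3R from 23958429 to 23958614, at a pooled signal of 368.6 and rank 234 of 3571 pooled peaks. Replicate 1 gave 198.3 and replicate 2 gave 180.7 in their own lists (189.5 ± 12.4, SD, n = 2). Its summit lay 147 bp upstream of the start. Among the 1911 bound coding genes 89.1% had a weaker peak.

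SerRS (FBgn0031497), which charges serine transfer RNA, had its peak on 2L from 3037297 to 3037459, at a pooled signal of 311.2 and rank 319. Replicate 1 gave 177.1 and replicate 2 gave 134.6 (155.8 ± 30.1, SD, n = 2). Its summit was 15 bp inside the transcript, in an untranslated exon of SerRS and an intron of the opposite-strand gene CG17260, and it was the only summit downstream of the start among the 7. The gene has 2 annotated starts, and the summit lay nearest the outermost one.

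IleRS (FBgn0027086), the isoleucine enzyme and part of the multisynthetase complex in animals, had its peak on 3L from 22288440 to 22288559, at a pooled signal of 240.5 and rank 523. Replicate 1 gave 112.5 and replicate 2 gave 125.1 (118.8 ± 8.93, SD, n = 2). The summit lay 157 bp upstream of the start. ThrRS (FBgn0027081), the threonine enzyme, had its peak on 2L from 12103429 to 12103768, at a pooled signal of 198.8 and rank 706. Replicate 1 gave 100.9 and replicate 2 gave 101.3 (101.1 ± 0.280, SD, n = 2). Of the 4 genes with a value in both own lists ThrRS had the smallest spread in signal, while its summit stood at -217 bp in replicate 1 and at -142 bp in replicate 2, negative values being upstream.

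ProRS-m (FBgn0027082), the mitochondrial proline enzyme, had the stronger of the mitochondrial peaks, on 3L from 2651845 to 2652184, at a pooled signal of 145.4 and rank 1174. It was in the own thresholded list of replicate 1, at 77.8. In replicate 2 the overlapping peak, at 64.1, was in the ranked list only. The summit was 165 bp upstream of the start, the farthest of the 7.

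CysRS-m (FBgn0033900), the mitochondrial cysteine enzyme, and MetRS (FBgn0034401), the cytoplasmic methionine enzyme, had the weakest peaks. CysRS-m's peak (2R, 14161135 to 14161474) had a pooled signal of 74.7 and rank 2812. Its summit was 43 bp upstream of the start. It was in the thresholded list of replicate 2, at 59.4, and reached 18.9 in the ranked list of replicate 1, so the 2 libraries were far apart. MetRS's peak (2R, 18850567 to 18850906) had a pooled signal of 65.4 and rank 3205. Its summit was 138 bp upstream of the start. It was in neither replicate's thresholded list. Replicate 2 ranked it at 55.2, and replicate 1 had no overlapping peak. Of the bound coding genes 11.6% had a weaker peak than CysRS-m and 4.97% a weaker one than MetRS.

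**Figure D2:**
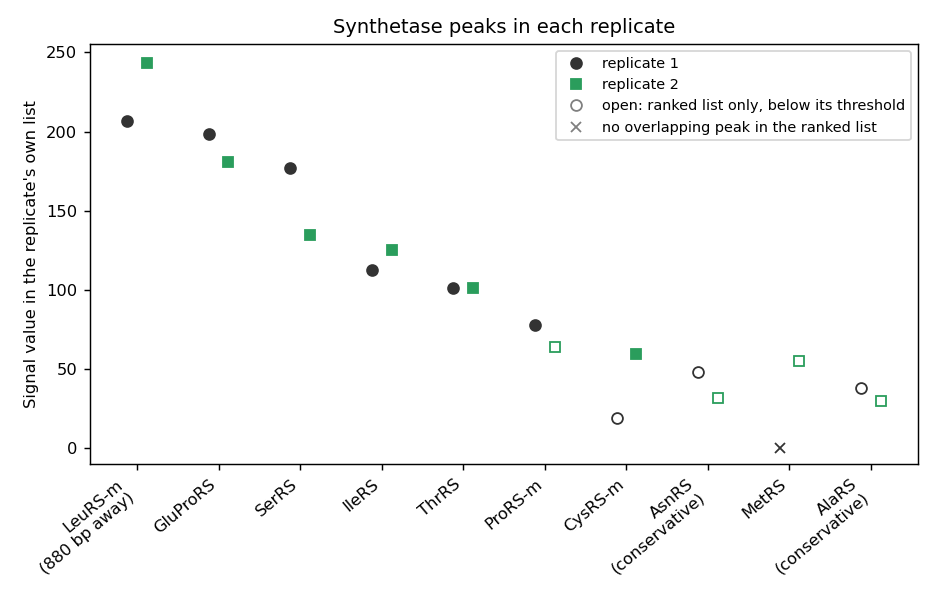
Signal value in each replicate's own list for the peaks at 10 synthetase genes, ordered by pooled signal. Filled symbols were in the replicate's thresholded list, open symbols in its ranked list only, and the cross marks no overlapping peak. GluProRS, SerRS, IleRS and ThrRS were thresholded in both replicates, as was the peak 880 bp from LeuRS-m.

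The peaks of GluProRS, SerRS, IleRS and ThrRS, the last without an -m counterpart among the members, were thus in both own lists. All 4 genes are cytoplasmic by symbol. With that stricter call 4 of 18 cytoplasmic genes (22.2%) and 0 of 15 mitochondrial genes were bound, the latter allowing a share of up to 20%, against 8.18% of coding genes. The median pooled signal of the 7 bound members was 198.8, and that of all 1911 bound coding genes was 135.4. Above that second value lay 5 of the 7, the exceptions being CysRS-m and MetRS. The median was 240.5 over the 5 cytoplasmic peaks and 110.0 over the 2 mitochondrial ones.

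All 7 bound synthetase genes shared their upstream region with a divergent coding gene, one that is transcribed away from it from a start within 500 bp. Such a start was also present at 1030 of the 1911 bound coding genes. Bound or not, 21 of the 33 members and 3736 of the 13968 coding genes had one. At GluProRS the neighbour was AP-1sigma, a subunit of a clathrin adaptor, with its start 260 bp away. At IleRS it was Hem, a part of the actin-regulating SCAR complex, 470 bp away, and at ThrRS it was Patsas, 466 bp away. At SerRS a start of CG17260 was 8 bp away, but CG17260 also spans the summit inside SerRS, so these genes overlap there. At MetRS the start of CG15084 was 245 bp away. At CysRS-m that of O-fut1, a fucosyltransferase that modifies Notch, was 168 bp away. At ProRS-m both CG42304 and Snup, the gene of snurportin, started 238 bp away.

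Because these regions are shared, a peak cannot be assigned to the synthetase alone. The summit was nearer to the neighbour's start at GluProRS (113 bp to AP-1sigma), MetRS (107 bp to CG15084) and ProRS-m (73 bp to CG42304 and Snup). It was nearer to the synthetase at SerRS, IleRS, ThrRS and CysRS-m, where the neighbour's start was 23, 313, 314 and 125 bp from the summit.

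**Figure D3:**
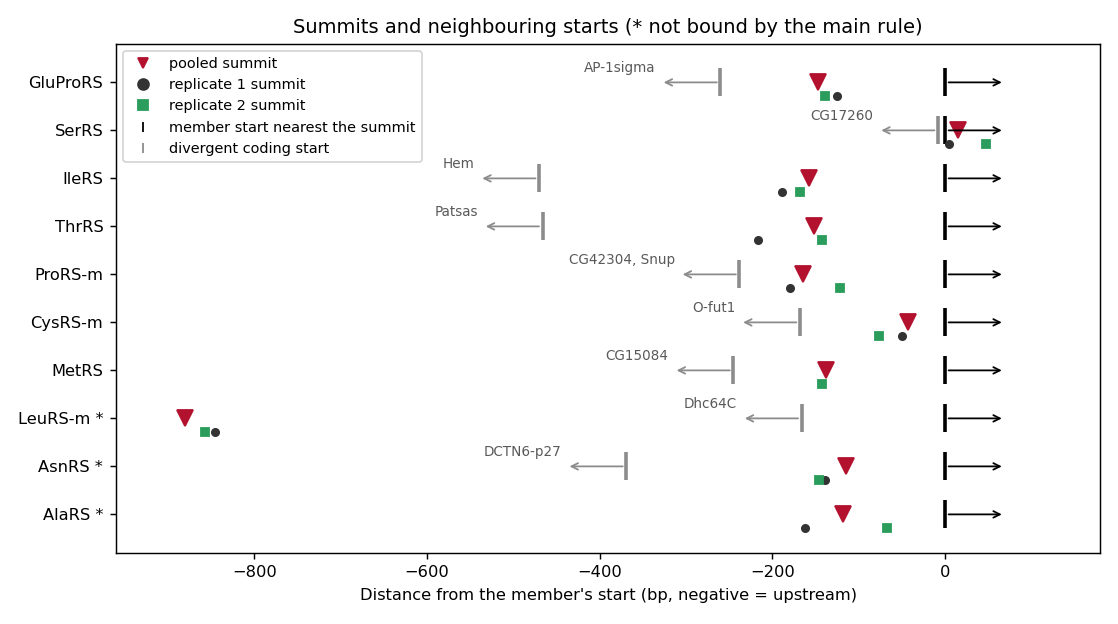
Summits at the 7 bound synthetase genes and at 3 genes outside the main rule (asterisk), by distance in bp from the synthetase start nearest the summit, with negative values upstream. Grey bars with arrows are starts of divergent coding genes. At each of the 7 bound genes the pooled summit lies between 165 bp upstream and 15 bp downstream of the synthetase start.

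The bound share was also read by whether a gene has a coding neighbour. Of the 22 synthetase genes with another coding start within 500 bp, 7 were bound (31.8%, Wilson 95% interval 16.4 to 52.7%), and of the 11 without one, 0 were bound, which allows a share of up to 27.3%. Over all coding genes the shares were 26.5% of 4309 and 7.94% of 9659. Such neighbours were present at 15 of 18 cytoplasmic and 7 of 15 mitochondrial genes. Among genes with a neighbour, 5 of 15 cytoplasmic (33.3%) and 2 of 7 mitochondrial genes (28.6%) were bound. The part of neighbours in the difference between the compartments was not tested. The split by neighbours was chosen after the bound genes had been seen.

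A divergent start was present at 21 synthetase genes, of which 7 were bound (33.3%, Wilson 95% interval 17.2 to 54.6%), against 27.6% of the 3736 coding genes with one. The 14 that were not bound included AlaRS-m, AspRS, GlnRS, LysRS, TrpRS, TyrRS and TyrRS-m. The gap between the starts had a median of 245 bp (range 8 to 470) at the 7 bound genes and of 144.5 bp (range 35 to 418) at the 14 others, with overlapping ranges. The same medians over coding genes were 260 and 232 bp. HisRS shares its annotated start with a transcript of Bx. The number of annotated starts also differed, with 26 over the 18 cytoplasmic and 17 over the 15 mitochondrial genes. Of members with 2 or more starts 3 of 9 were bound, and of those with 1 start 4 of 24. The same shares over all coding genes were 23.1% and 10.3%.

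Paired by amino acid, 14 amino acids had both a cytoplasmic and a mitochondrial gene among the members, with GluProRS counted for both glutamate and proline. The cytoplasmic gene alone was bound for glutamate, isoleucine, methionine and serine. For cysteine it was CysRS-m alone, and for proline both GluProRS and ProRS-m, which lie on different arms. Neither gene was bound for the other 8, alanine, arginine, asparagine, aspartate, leucine, tryptophan, tyrosine and valine. Glutamine, glycine, histidine, lysine and threonine had a cytoplasmic gene only, and of these ThrRS was bound. PheRS-m had no cytoplasmic partner among the members and was not bound.

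By enzyme class, 3 of 18 class I genes (16.7%, Wilson 95% interval 5.84 to 39.2%) and 3 of 14 class II genes (21.4%, interval 7.57 to 47.6%) were bound. Both wide intervals include the 13.7% of all coding genes, and GluProRS, which holds both classes, is in neither count. Of the 8 cytoplasmic genes whose enzymes belong to the multisynthetase complex in animals, GluProRS, IleRS and MetRS were bound (37.5%, Wilson 95% interval 13.7 to 69.4%). Of the 10 other cytoplasmic genes 2 were (20%, interval 5.67 to 51.0%). The intervals overlap widely and both include 13.7%. By arm, bound members numbered 2 of 6 on 2L, 2 of 8 on 2R, 2 of 10 on 3L, 1 of 6 on 3R and 0 of 3 on X. Over all coding genes the bound share was 13.7% on 2L, 12.9% on 2R, 15.5% on 3L, 13.8% on 3R and 12.8% on X.

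The 26 synthetase genes that were not bound still had weak entries in most cases. The ranked list, which holds 143047 pooled peaks before the threshold, had a peak within 500 bp at 28 of the 33 members and at 78.0% of all coding genes. HisRS, ArgRS, TrpRS-m, TyrRS-m and MetRS-m had none, although replicate 2 alone ranked a peak of 45.4 at ArgRS and replicate 1 alone one of 30.8 at MetRS-m. In the other 21 unbound genes the strongest peak ran from 6.35 at AsnRS-m to 72.1 at AsnRS, with a median of 40.8, against 29.3 in the 8970 coding genes outside the members that were unbound but had a ranked peak. The median over those cytoplasmic genes was 42.3 (n = 11) and over those mitochondrial genes 36.2 (n = 10), and their ranges of 10.01 to 72.1 and 6.35 to 63.3 overlap.

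Below the genes nearest the threshold, cytoplasmic AspRS had a strongest ranked signal of 53.8, LysRS of 42.9 and LeuRS of 42.3. TrpRS reached 38.1, TyrRS 33.3, CysRS 29.4, GlnRS 21.9 and GlyRS 10.01. Of these, AspRS, LysRS, LeuRS and GlnRS belong to the multisynthetase complex with the bound GluProRS, IleRS and MetRS. Among mitochondrial genes SerRS-m had a ranked signal of 62.4, AlaRS-m of 53.8, AspRS-m of 44.9 and GluRS-m of 40.8. ValRS-m reached 31.7, PheRS-m 22.8, IleRS-m 17.6 and LeuRS-m 9.80. These signals lay below the 65.4 of MetRS, the weakest bound member.

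AsnRS, AlaRS, ValRS and ArgRS-m were closest below the threshold by the authors' score, which rises with reproducibility and was at least 830 in the pooled list. AsnRS, the asparagine enzyme, scored 798 with a signal of 72.1, higher in signal than MetRS, which scored 956. ValRS scored 753 at 59.6, ArgRS-m 695 at 63.3 and AlaRS 668 at 60.7. AsnRS and AlaRS, the alanine enzyme, were in the authors' conservative list, where they took the places of MetRS and CysRS-m. The AsnRS peak spans 19131899 to 19132238 on 2L, ranks 2833 in that list and has a summit 115 bp before the start. The AlaRS peak spans 8381712 to 8382051 on 2L, ranks 3095 and has a summit 118 bp before the start. In AsnRS replicate 1 ranked its peak at 48.2 and replicate 2 at 31.5, and in AlaRS the values were 38.4 and 30.2, all in ranked lists only. The AlaRS summit also lies in an untranslated exon of CG13392.

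LeuRS-m, the mitochondrial leucine enzyme, was the closest member outside the window. A peak on 3L from 4824891 to 4825095 had its summit 880 bp upstream of LeuRS-m, against 165 bp for the farthest bound member. Its pooled signal of 457.3, rank 157, was above that of any bound member. Replicate 1 gave 206.9 and replicate 2 gave 243.1 (225.0 ± 25.6, SD, n = 2). The summit lies in an intron of Dhc64C, a dynein heavy chain gene, 714 bp downstream of its start. Within 500 bp of LeuRS-m the strongest ranked peak reached 9.80.

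The summits of the members were richer in A and T than most promoter summits. At the 7 bound genes 73.3 to 79.2% of the 101 bases were A or T, with a median of 78.2%, and the windows centred 500 bp to either side had a median of 44.6%. All 7 summits exceeded their own flanks, by 21.3 points at ThrRS to 35.1 points at MetRS. Over the 1442 pooled peaks within 500 bp of a coding start the medians were 68.3% at summits and 54.5% in flanks, and 82.2% of them exceeded their flanks. Each of the 7 lay above that summit median, and between 68.6% (ThrRS) and 90.8% (GluProRS and MetRS) of those summits held less A and T. At a fixed distance of 147 bp upstream of the outermost start, windows held a median of 74.3% A or T at bound members, 69.8% at the other 26 members and 65.3% over coding genes, with ranges of 57.4 to 79.2% and 48.5 to 88.1% in the members. These ranges overlap.

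**Figure D4:**
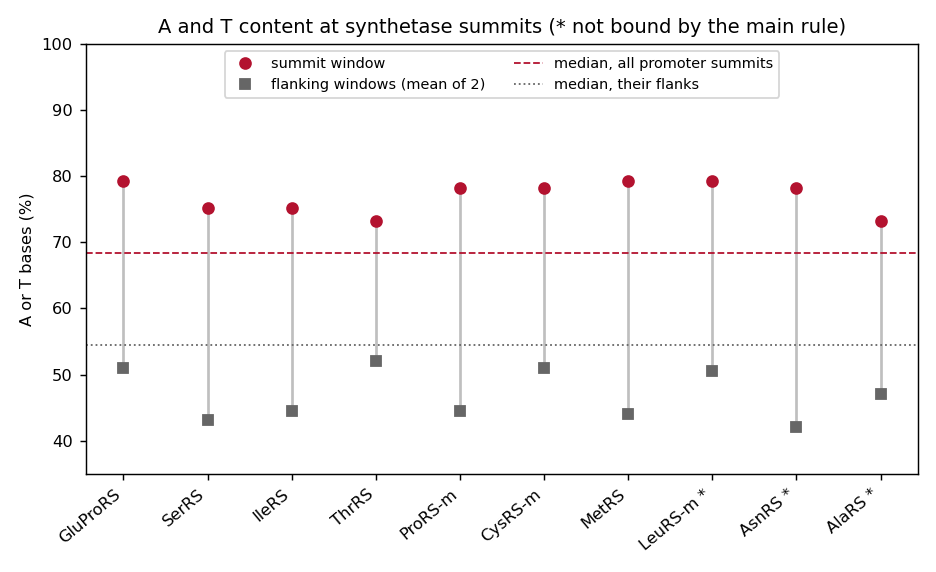
Percent of A or T in 101 bp at each summit (circles) and in windows of the same size centred 500 bp to either side (squares, mean of both), for the 7 bound synthetase genes and 3 others (asterisk). Dashed and dotted lines give the medians of 1442 promoter peaks and their flanks. Each summit lies between 73.3 and 79.2%, above the dashed line at 68.3%.

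Short sequences of known promoter elements were looked for on both strands, from 250 bp before to 50 bp after the outermost start. The TATA box TATAAA was in 5 of 7 bound and 13 of 26 other members, against 45.8% of coding promoters, and the initiator TCAGT was in 5 of 7 and 14 of 26, against 51.5%. The DRE, TATCGATA, was in 5 of 33 members (15.2%), AlaRS, ArgRS, IleRS, PheRS-m and TrpRS, against 9.36%. The core of Ohler motif 1, GGTCACAC, was in AsnRS-m, AspRS-m, GlnRS and ProRS-m (12.1%), against 7.69%. The E-box CACGTG was in GlnRS and LeuRS-m (6.06%), against 4.20%, and GAGAG was in 6 members (18.2%), against 29.7%.

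The sequence TGATGCAA, to which the stress response factor ATF4 binds in mammals, was in none of the 33 promoters and in 0.816% of all. TATATTAA, a sequence listed from earlier results of these data, was in the promoters of IleRS-m and ValRS (6.06%), against 5.36% of coding promoters. It was in none of the 7 summit windows, against 4.51% of promoter summits. AGATGGCG, listed from the same source, was in PheRS-m, which was not bound, and in 0.966% of coding promoters. In the summit windows TATAAA was at ProRS-m, SerRS and ThrRS, against 23.1% of promoter summits. TATAAA and TATATTAA can share bases with the A and T runs described above.

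Other genes that act beside the synthetases were read from a short list, whose sets ranged from 0 to 50% bound. Of 24 listed genes 23 were matched and 4 were bound (17.4%), against 13.7% of all coding genes. None of alpha-PheRS, beta-PheRS and Slimp, synthetase-type genes whose symbols fall outside the rule, and none of the scaffold genes AIMP1, AIMP2 and AIMP3 were bound. Of the subunits that make glutaminyl-tRNA in mitochondria, GatA was bound at a pooled signal of 130.7, with 70.6 in replicate 1 and 65.9 in replicate 2, while GatB and GatC were not. Its summit is also near the start of P5cr.

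Of 6 listed genes of cytoplasmic elongation factors 3 were bound (50%), against 13.7% of all coding genes. They were eEF1gamma at a pooled signal of 288.8 (146.1 and 152.0 in the replicates), eEF1alpha1 at 106.4 (62.2 and 49.5) and eEF2 at 77.7 (in neither own list). The 4 matched mitochondrial elongation factors, mEFTu1, mEFTu2, mEFTs and mEFG1, were unbound. So were Gcn2, the kinase that senses uncharged transfer RNA, PEK, eIF2alpha and crc, the fly orthologue of ATF4. Their strongest ranked peaks were 37.4 at Gcn2, 22.7 at PEK and 4.75 at crc, with none at eIF2alpha. A set of 4 genes is too small for a count of 0 to be set apart from 13.7%. The contrast between these sets was not tested.

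The counts of bound members were read again in other peak lists and windows. The conservative list gave 7 of 33, against 12.7% of coding genes. The stronger 1775 pooled peaks gave 5, against 8.59%. The own lists of replicates 1 and 2 gave 5 each, against 9.88% and 10.5%, and differed in ProRS-m and CysRS-m. A window of 100 bp left SerRS and CysRS-m, 2 of 33 against 3.97%, and one of 1000 bp added LeuRS-m, 8 against 16.5%. Any overlap of the peak with the 500 bp window gave the same 7 genes, against 14.8%.

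**Figure D5:**
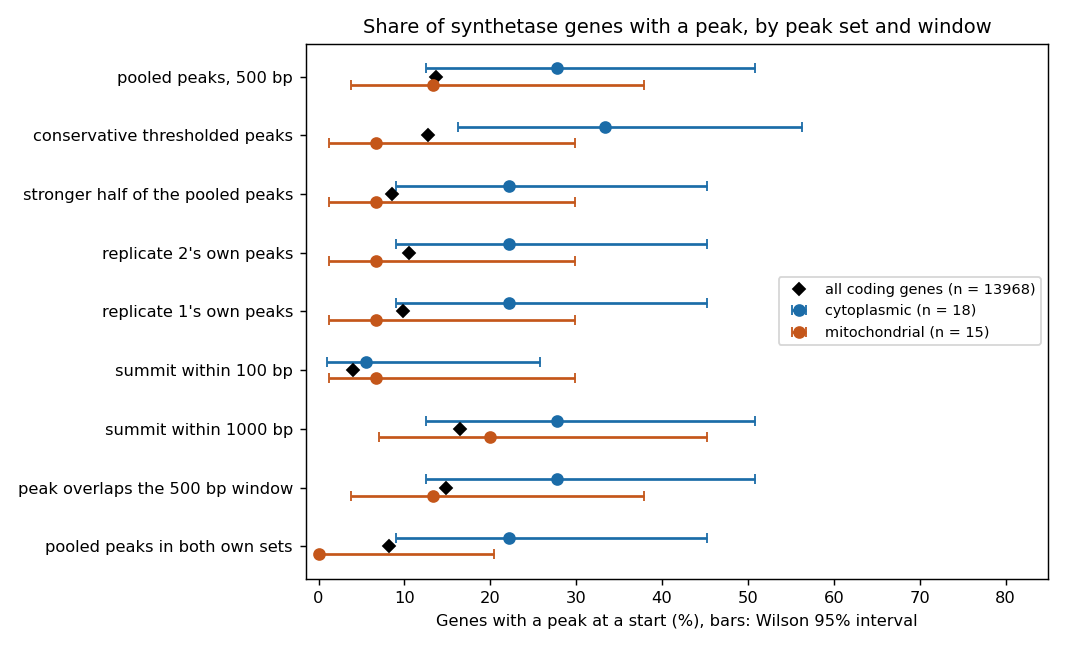
Share of cytoplasmic (blue) and mitochondrial (orange) synthetase genes with a peak, with Wilson 95% intervals, and of all coding genes (diamonds), for each peak list and window. Cytoplasmic shares lie above mitochondrial ones in each line except the 100 bp window, where they are 5.56% and 6.67%, and the intervals overlap throughout.

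The median summit distance of the bound synthetase genes was close to that of all bound coding genes, which include them. Both groups were chosen by a summit within 500 bp of a start. The median distance between summit and start was 147 bp for the 7 members and 149 bp for the 1911 bound coding genes. Upstream summits made up 6 of the 7 and 88.4% of the 1911.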

How the data were processed

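ChIP-seq was made on 2 biological replicates of 1 group, per the labels. Peak lists ordered and thresholded by the irreproducible discovery rate (IDR) were deposited for each replicate and for both pooled, on dm6 per the labels. No source used here names the aligner, the caller or the depth. The signal the authors deposited carries no unit. Their deposited score rises with reproducibility up to a ceiling, and −log10 IDR values stand in the deposited ranked lists. The summit comes from the deposited offset. Unnamed columns, 16 in the 2 pooled ranked lists, were not used.

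Summits were set against Ensembl release 115 starts, and bases were read from NCBI Release 6. Each gene took its strongest peak in the window. Intervals are 95% Wilson and Newcombe intervals, and the share that a count of 0 allows was set by 3 counts. No test was made, because there is 1 group and genes are not replicates. Python 3.11.15, numpy 2.4.6 and scipy 1.17.1 were used, and the calling was tested on planted peaks.

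The members, lists, motifs and alternatives were chosen with earlier results of these data known. All members are named, with full values where a thresholded list holds a peak within 500 bp or the pooled list one within 1000 bp.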

Additional observations from a re-analysis of the deposited data

How the results depend on the processing

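With a 100 bp window the shares bound were 6.06% of all members and 5.56% of cytoplasmic ones, and the difference between compartments turned to -1.11 points, from 1 gene in each. It was 26.7 points with the conservative list, 7.78 with 1000 bp, 15.6 with the stronger peaks and with either replicate's own list, and 22.2 with peaks in both own lists, where the mitochondrial share was 0%. That last call was chosen after seeing the data. Without replicate 1 or replicate 2 the shares were 15.2% of all, 22.2% of cytoplasmic and 6.67% of mitochondrial members. The median signal was 240.5 with the stronger peaks, 219.6 with 1000 bp and 275.8 with peaks in both own lists. In own lists, whose signals are on a lower scale, it was 112.5 to 125.1. The median distance was 29 bp with 100 bp and 139 to 180 bp in own lists. Each mitochondrial peak was in 1 own thresholded list, and the MetRS peak in neither. With 15 mitochondrial genes, each gene moves the share by 6.67 points. No paired analysis was possible because there is 1 group, so replicate numbers pair no samples.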
